A study of Rattus norvegicus with 6 samples.

Results

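Potassium channel genes are described here in the rat pancreatic islet, where the endocrine cells that release insulin and glucagon sit, before and after birth. The members are the 82 of 18625 named genes in the deposited table whose symbol starts with Kcn, a lower-case letter and a further digit or letter, together with Abcc8 and Abcc9, the sulfonylurea receptor genes that complete the ATP-sensitive channel. The rule uses symbols and no measured value. RNA sequencing compared 3 postnatal libraries with 3 fetal libraries of freshly isolated islets from Rattus norvegicus; no strain, genotype or treatment is named in the labels. The postnatal libraries are titled 2 weeks, whereas the age entries read week 2 for replicate 1, week 3 for replicate 2 and week 4 for replicate 3, and the fetal libraries are labelled embryonic day 19 (E19). Whether replicates are separate animals, pools of animals or repeats of one preparation is not stated, so the p-values cover the spread between these libraries, which may be technical. All libraries are whole islet preparations and hold several cell types. In such bulk samples, fewer cells of a type and less RNA per cell cannot be told apart.

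Potassium channels let potassium leave the cell and so hold the membrane at a negative voltage. In beta cells the ATP-sensitive channel closes when glucose metabolism raises ATP, the membrane depolarises, calcium channels open and insulin is released. Voltage-gated and calcium-activated channels then repolarise the cell, and two-pore-domain channels carry a steady leak current. The same families also serve acinar and duct secretion, vascular tone and nerve excitability, so their transcripts in an islet preparation can come from more than one cell type.

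Expression is given as scaled CPM, the authors' CPM (reads per 1e6) on a library size adjusted between libraries. The reads behind it numbered 29.2, 28.2 and 29.5 M in postnatal replicates 1, 2 and 3 and 26.1, 37.8 and 30.7 M in fetal replicates 1, 2 and 3. A log2 fold change is the postnatal minus the fetal mean of log2(scaled CPM + 1), with its standard error (SE), and it understates the change of genes at low levels. A gene was tested if it reached a scaled CPM of 1 in at least 3 libraries, and called higher or lower at a Benjamini-Hochberg adjusted p under 0.05 from limma over all 12926 genes tested.

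Most of the tested potassium channel genes were higher after birth. Of the 82 members, 54 were tested, and 34 of them were higher, 7 lower and 13 not past the threshold. Called in either direction were 41 members, against 63.1% of all genes tested, of which 30.0% were higher and 33.1% lower. The split of all genes depended on the scaling: by total reads 13.8% were higher and 39.6% lower (24 and 8 members), and with the 20 most abundant genes kept out of the scaling 39.0% were higher and 24.3% lower (37 and 5 members). The median log2 fold change was 0.86 over the tested members and -0.03 over all tested genes. Of the 54, 9 entered the test only through the postnatal libraries and had to differ to do so, and none entered only through the fetal ones. Among those 9 were Kcna2, Kcna4, Kcnc2, Kcnh7, Kcnj3, Kcnj12, Kcnk12 and Kcnv2. Their adjusted p-values are therefore no independent test of a rise. Among the 45 members that reached a scaled CPM of 1 in both groups, 25 were higher and 7 lower, against 28.0% and 33.6% of all such genes. At least a 2-fold rise was seen in 25 members and at least a 4-fold rise in 8, where the shares of all genes tested were 14.8% and 4.08%. None of the 7 lower members reached a 2-fold fall. The 3 postnatal values lay above the 3 fetal values in 35 tested members and under them in 8, against 33.1% and 36.9% of all genes tested.

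**Figure D1:**
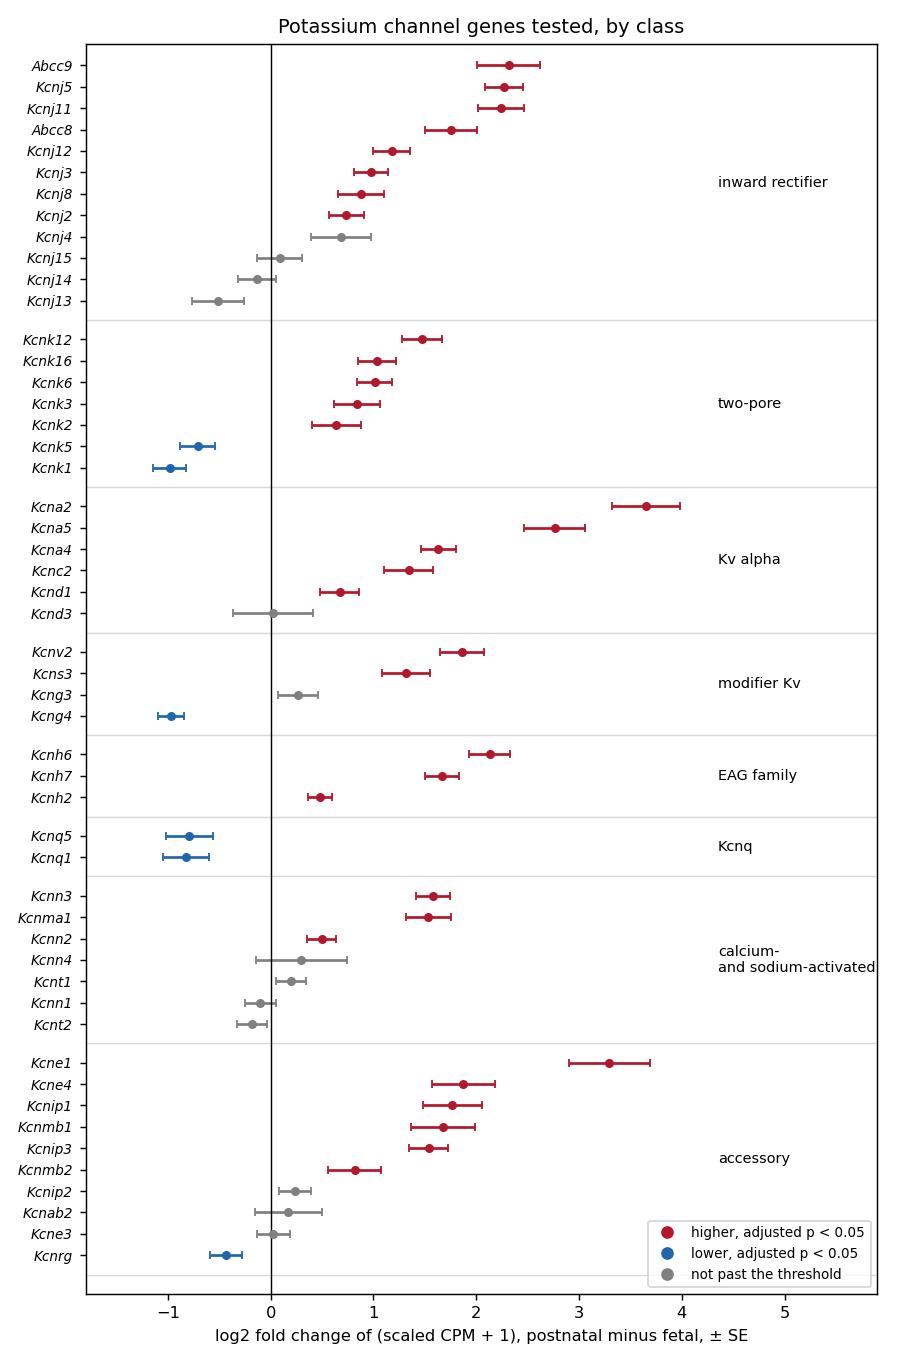
Log2 fold change with its SE for 51 tested potassium channel genes, grouped by class, postnatal minus fetal, on 3 libraries per group. Red points are higher (32), blue points lower (6) and grey points not past an adjusted p of 0.05 (13). Values run from 3.65 for Kcna2 to -0.98 for Kcnk1.

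Marker transcripts of cell types in the preparations differed between the groups as well. Endocrine markers summed to between 63211 and 116632 scaled CPM in the postnatal and between 2673 and 6590 in the fetal libraries, and 17 of 18 were higher (median log2 fold change 3.26). Acinar markers, from the enzyme-secreting cells around islets, summed to 502669, 185539 and 173378 in postnatal replicates 1, 2 and 3. In the fetal libraries they summed to between 46516 and 71141, with 8 of 12 higher after birth and 1 lower (median 2.62). The lower one was Ptf1a, at a mean of 28.6 in the postnatal and 257 in the fetal libraries (log2 fold change -3.16). Smooth muscle and pericyte markers summed to between 605 and 835 in the postnatal and between 145 and 325 in the fetal libraries, with 5 of 6 higher (median 1.53). Endothelial markers summed to between 340 and 572 in the postnatal and between 140 and 218 in the fetal libraries, all 5 higher (median 1.11). Duct markers overlapped, at 254 to 429 in the postnatal and 363 to 403 in the fetal libraries, with none of 6 higher and 2 lower. Neuron markers summed to only 25.6 to 43.8 in the postnatal and 16.4 to 26.3 in the fetal libraries, mostly from Elavl4, Stmn2 and Tubb3. Of these 3, the only ones tested, Elavl4 and Stmn2 were higher. Elavl3, not tested, went the other way, at 0.0683 to 0.101 in the postnatal and 0.242 to 0.614 in the fetal libraries. Chat, the defining gene of cholinergic neurons, was listed at 0 in some libraries. Of 5 glial markers 3 were higher and 1 lower, of 6 macrophage markers 4 were higher, of 2 tested lymphocyte markers 1 was higher and 1 lower, and erythroid and liver markers were lower in 4 of 5 and 2 of 3. Of these, Gfap, Cd3g and Hbe1 entered the test only through the fetal libraries. Fetal replicate 2 stood apart in liver markers (6517, against 196 in fetal replicate 1 and 266 in fetal replicate 3), and postnatal replicate 1 in acinar markers. Without these libraries together, 35 members were higher and 8 lower, against 29.3% and 31.6% of all genes tested.

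**Figure D2:**
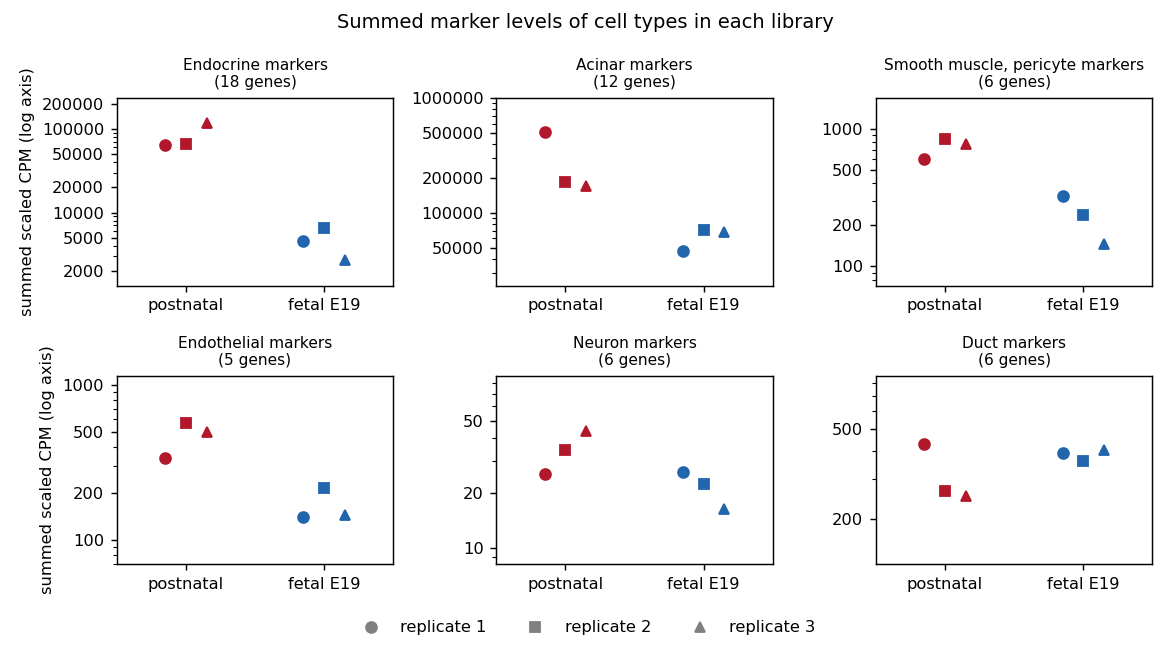
Summed scaled CPM of 6 marker lists in each library, on log axes, postnatal left and fetal right. The groups are apart for endocrine, acinar, smooth muscle and endothelial markers and overlap for neuron and duct markers, and postnatal replicate 1 has the highest acinar sum (502669).

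All 4 subunit genes of the ATP-sensitive channels were higher after birth. Kcnj11, encoding the pore of the beta cell channel, stood at 27.9, 35.9 and 52.6 scaled CPM in postnatal replicates 1, 2 and 3, against 8.04, 7.41 and 6.13 in fetal replicates 1, 2 and 3. Abcc8, encoding its sulfonylurea receptor, stood at 121, 157 and 207 in the postnatal libraries, against 60.5, 48.1 and 33.5 in the fetal ones. For both genes the groups were well apart, the library labelled week 4 was highest and fetal replicate 3 lowest. The same 2 libraries held the highest and the lowest sum of endocrine markers. The part of endocrine cells in these differences was not tested. The log2 fold change was 2.24 ± 0.22 for Kcnj11 (SE, n = 3 each; limma adjusted p = 1.45e-04) and 1.75 ± 0.25 for Abcc8 (limma adjusted p = 6.78e-04). Within a library the log2 ratio of Kcnj11 to Abcc8 was -2.07 ± 0.08 in the postnatal and -2.69 ± 0.23 in the fetal group (mean ± SD, n = 3 each). These ratios did not overlap.

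Kcnj8 and Abcc9 encode the pore and the receptor of the ATP-sensitive channel of vascular smooth muscle and pericytes. Abcc9 stood at 49.4, 100.4 and 92.7 in postnatal replicates 1, 2 and 3, against 13.2, 21.0 and 11.5 in the fetal libraries, a log2 fold change of 2.31 ± 0.30 (limma adjusted p = 4.63e-04). Kcnj8 stood at 30.9, 41.7 and 45.7 in the postnatal libraries, against 17.6, 28.9 and 17.4 in the fetal ones, with 0.88 ± 0.22 (limma adjusted p = 0.00994). The groups did not overlap for either gene, although postnatal replicate 1 and fetal replicate 2 lay close for Kcnj8. The log2 ratio of Kcnj8 to Abcc9 was -0.99 ± 0.30 in the postnatal and 0.49 ± 0.09 in the fetal libraries, so the receptor gene gained on the pore gene. Of 6 smooth muscle and pericyte markers, 5 were higher too, from Pdgfrb (log2 fold change 0.86) to Rgs5 (3.65), and Cnn1 did not pass. Rgs5 stood at 46.2 to 67.2 in the postnatal and 2.44 to 4.96 in the fetal libraries. Among the fetal libraries the sum of these markers was highest in replicate 1 (325), whereas Kcnj8 and Abcc9 were highest in replicate 2. The part of smooth muscle cells and pericytes in the difference was not tested. The Kcnj8 call was lost when libraries were scaled by total reads (0.54).

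**Figure D3:**
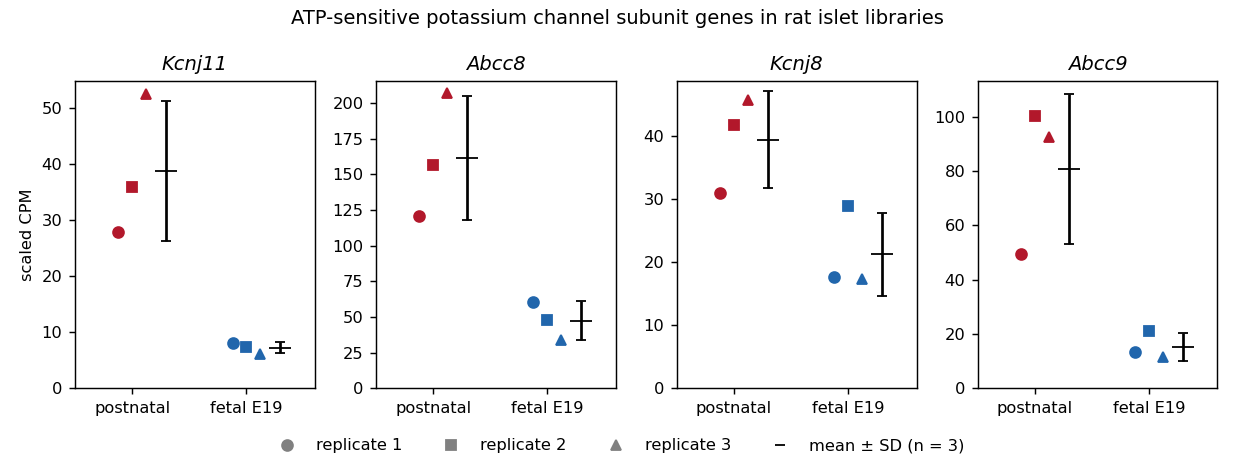
Scaled CPM of Kcnj11, Abcc8, Kcnj8 and Abcc9 in each library, postnatal left and fetal right, with the group mean ± SD (n = 3). All 3 postnatal points lie above all 3 fetal points for each gene, and postnatal replicate 1 is the lowest postnatal point in each panel.

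In the rat assembly GRCr8 of RefSeq, Kcnj11 and Abcc8 are adjacent protein-coding genes, and so are Kcnj8 and Abcc9. The 82 members hold 9 such neighbouring pairs, among them Kcna2 with Kcna10, Kcnk16 with Kcnk5, and Kcnj9 with Kcnj10. Neighbours did not always move alike: Kcnk16 was higher and Kcnk5 lower, and Kcna10 had no read in any library. RefSeq promoters were matched by symbol for 54 of the 82 members. Of the 250 bases before the gene start, the first pair below belongs to neighbours that were both higher, Kcnj8 (chr4:177246549-177246798, minus strand) and Abcc9 (chr4:177386349-177386598, minus strand), and the second pair to islet channel genes described further on, Kcnh6 (chr10:91449401-91449650, plus strand) and Kcnk16 (chr15:4091441-4091690, plus strand), all in build GRCr8. They are shown so that GC boxes can be compared among members whose transcripts rose. Capitals mark GC boxes, GGGCGG on either strand, the recognition letters of Sp factors.
Kcnj8: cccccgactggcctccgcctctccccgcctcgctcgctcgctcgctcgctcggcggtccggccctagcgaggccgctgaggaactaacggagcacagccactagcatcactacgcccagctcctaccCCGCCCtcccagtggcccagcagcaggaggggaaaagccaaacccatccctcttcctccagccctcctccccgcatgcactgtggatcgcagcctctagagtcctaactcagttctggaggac
Abcc9: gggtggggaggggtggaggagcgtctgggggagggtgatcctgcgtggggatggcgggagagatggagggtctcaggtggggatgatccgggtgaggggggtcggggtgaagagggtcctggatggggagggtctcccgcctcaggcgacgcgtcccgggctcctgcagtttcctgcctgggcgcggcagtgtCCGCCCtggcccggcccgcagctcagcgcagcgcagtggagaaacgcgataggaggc
Kcnh6: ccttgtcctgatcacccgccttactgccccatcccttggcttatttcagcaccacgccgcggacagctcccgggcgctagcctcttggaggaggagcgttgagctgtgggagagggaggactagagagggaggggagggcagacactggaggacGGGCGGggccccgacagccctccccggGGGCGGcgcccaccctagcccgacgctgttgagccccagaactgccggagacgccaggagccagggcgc
Kcnk16: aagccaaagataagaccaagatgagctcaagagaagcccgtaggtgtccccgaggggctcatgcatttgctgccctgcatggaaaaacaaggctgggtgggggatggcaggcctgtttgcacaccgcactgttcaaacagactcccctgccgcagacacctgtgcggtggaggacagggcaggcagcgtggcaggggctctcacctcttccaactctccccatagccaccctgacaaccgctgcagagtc
The GC box occurred once each in the Kcnj8 and Abcc9 windows, at 2 places in that of Kcnh6 and nowhere in that of Kcnk16, and none of these overlapped an E-box (CANNTG) or a TATA box (TATAAA). Of the 54 member promoters, 46.3% held a GC box, 64.8% an E-box and 1.85% a TATA box, each counted on both strands. Of all 27457 rat promoters of this length the shares were 32.4%, 65.2% and 13.1%. The median base composition was 59.6% G and C in the member promoters and 52.0% in all. A match describes letters and is not a binding site.

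Among the other inward rectifiers, the G protein-gated subunit genes Kcnj5 and Kcnj3 and the strong rectifier genes Kcnj12 and Kcnj2 were higher after birth. Kcnj5, encoding a G protein-gated subunit, stood at 10.6, 9.09 and 12.9 in the postnatal libraries, against 1.66, 1.67 and 1.05 in the fetal ones (2.27 ± 0.18; limma adjusted p = 6.15e-05). Its partner gene Kcnj3 stood at 1.01, 1.45 and 1.57 in the postnatal, against 0.123, 0.290 and 0.154 in the fetal libraries, and Kcnj6, a further subunit gene of that kind, was not tested, at 0.152, 0.138 and 0.205 in the postnatal, against 0, 0.0242 and 0 in the fetal libraries. Both groups of Kcnj5 and of Kcnj3 were apart, and Kcnj3 was higher (0.97 ± 0.17; limma adjusted p = 0.00154). When libraries were scaled by total reads, Kcnj3 no longer reached the limit for testing. The strong rectifier genes Kcnj12 (1.18 ± 0.18) and Kcnj2 (0.74 ± 0.17) were higher too, the call of Kcnj2 being lost when libraries were scaled by total reads. Kcnj13, encoding a weakly rectifying channel of epithelia, stood at 11.7, 6.06 and 6.18 in the postnatal libraries, against 10.8, 9.80 and 13.8 in the fetal ones, and did not pass (-0.51 ± 0.25; limma adjusted p = 0.108). Only its first postnatal library, the one with the highest acinar and duct sums, lay inside the fetal range, and without that library Kcnj13 was called lower (-0.79). With all libraries kept it was also called lower when scaled by total reads (-0.84), with the acinar list kept out of the scaling (-0.58) and with the labelled week as a covariate (-0.51). Of the 16 members of this class, receptors included, 12 were tested, 8 of them higher and none lower. The shares of all genes tested were 30.0% and 33.1%. Kcnj3 and Kcnj12, among the 8, entered the test only through the postnatal libraries and had to differ to do so. Kcnj4, Kcnj14 and Kcnj15 did not pass either (log2 fold changes 0.68, -0.13 and 0.09), and Kcnj9, Kcnj10 and Kcnj16 were not tested, with no value above 1.16.

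Two-pore-domain genes split in direction. Kcnk16, encoding an alkaline-activated leak channel enriched in islets, stood at 50.4, 51.2 and 81.4 in postnatal replicates 1, 2 and 3, against 29.3, 30.6 and 25.9 in the fetal libraries (1.03 ± 0.19; limma adjusted p = 0.00210). Like Kcnj11 it was highest in the postnatal library with the highest endocrine sum, and the part of endocrine cells was not tested. Kcnk1, encoding a weak inwardly rectifying leak channel, stood at 29.6, 21.0 and 20.3 in the postnatal libraries, against 41.8, 48.2 and 51.2 in the fetal ones (-0.98 ± 0.16; limma adjusted p = 0.00126). Kcnk5, encoding an acid-inhibited channel of secretory epithelia, stood at 13.2, 11.8 and 8.60 in the postnatal, against 20.9, 17.3 and 18.0 in the fetal libraries (-0.71 ± 0.17; limma adjusted p = 0.00728). For both falling genes every postnatal value lay under every fetal one. The acid-sensitive channel gene Kcnk3 was tightly grouped after birth, at 6.43, 6.37 and 6.18 in the postnatal, against 4.73, 2.08 and 2.90 in the fetal libraries before (0.84 ± 0.23; limma adjusted p = 0.0128). Kcnk6 (1.01 ± 0.17), Kcnk12 (1.47 ± 0.19) and the mechanosensitive channel gene Kcnk2 (0.64 ± 0.24) were higher, although the Kcnk2 groups overlapped and its call was lost with the replicate block, a pseudocount of 5, no filter, the acinar list kept out of the scaling, and without fetal replicate 2 or 3 or postnatal replicate 2 or 3. When libraries were scaled by total reads the calls of Kcnk16, Kcnk3 and Kcnk2 were lost, with log2 fold changes of 0.69 for Kcnk16 and 0.55 for Kcnk3. Of 14 members, 7 were tested, 5 of them higher and 2 lower, against 30.0% and 33.1% of all genes tested. Kcnk12 entered the test only through the postnatal libraries and had to differ to do so.

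Among the voltage-gated pore genes, Kcna2 and Kcna5 were higher after birth by more than 4-fold. Kcna2, known from axons and neurons, stood at 28.8, 13.9 and 10.4 in postnatal replicates 1, 2 and 3, against 0.522, 0.411 and 0.185 in the fetal libraries. Its log2 fold change of 3.65 ± 0.33 was the largest of all members (limma adjusted p = 9.74e-05), and edgeR on the recovered reads gave 5.58. Kcna2 entered the test only through the postnatal libraries and had to differ to do so. Postnatal replicate 1, labelled week 2, had the highest Kcna2 level and also the highest acinar and duct sums. Acinar RNA, duct RNA and labelled age cannot be told apart in this library, and the part of each in this gene was not tested. Kcna5, encoding a delayed rectifier of heart and vascular smooth muscle, stood at 7.75, 12.5 and 12.6 in the postnatal, against 0.890, 1.36 and 0.154 in the fetal libraries (2.76 ± 0.30; limma adjusted p = 1.97e-04). Here postnatal replicate 1 was the lowest postnatal library, as it was in the smooth muscle and pericyte, endocrine, endothelial, neuron, glial and macrophage sums. The part of any of these cell types was not tested.

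Further pore-forming genes of that class stood at low levels. The transient-current gene Kcna4 (1.63 ± 0.17) and Kcnc2, a fast-spiking channel gene (1.34 ± 0.24), reached no more than 4.10 and 3.76 scaled CPM. Kcnd1, another transient-current gene, was higher by 0.67 ± 0.19, a call lost when libraries were scaled by total reads, with the acinar list kept out of the scaling, and without fetal replicate 3 or postnatal replicate 2. Kcnd3, a close relative, stood at 0.759, 1.76 and 1.16 in the postnatal libraries, against 3.01, 0.871 and 0.339 in the fetal ones, and did not pass (0.02 ± 0.39; limma adjusted p = 0.967). Its fetal libraries spread more than its groups differed.

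Modifier subunits form no channel alone but join pore-forming subunits of other voltage-gated genes and change their gating. Kcng4 stood at 49.4, 44.2 and 39.9 in the postnatal libraries, against 77.7, 88.3 and 98.3 in the fetal ones. Its groups were well apart and it was lower (-0.97 ± 0.12; limma adjusted p = 4.09e-04). Kcns3 stood at 2.94, 5.88 and 5.02 in the postnatal, against 0.921, 1.52 and 1.17 in the fetal libraries (1.32 ± 0.23; limma adjusted p = 0.00184), and Kcnv2 at 2.83, 5.40 and 3.48 in the postnatal, against 0.215, 0.411 and 0.339 in the fetal libraries (1.86 ± 0.21; limma adjusted p = 2.58e-04). Both rising modifiers were lowest after birth in postnatal replicate 1. Kcng3 did not pass (0.26 ± 0.19), and Kcnf1, Kcns1, Kcns2 and Kcnv1 were not tested.

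The ether-a-go-go-related genes, whose channels carry a slowly deactivating current that contributes to repolarisation, were all higher where tested. Kcnh6 stood at 57.9, 65.6 and 96.7 in postnatal replicates 1, 2 and 3, against 17.6, 15.9 and 13.6 in the fetal libraries (2.13 ± 0.19; limma adjusted p = 9.90e-05). Its order of libraries was that of Kcnj11 in both groups. Kcnh2 stood at 54.4, 45.5 and 48.6 in the postnatal, against 33.4, 39.4 and 32.9 in the fetal libraries (0.48 ± 0.11; limma adjusted p = 0.00742), a small difference that was lost when libraries were scaled by total reads (0.14). Kcnh7 stood at 4.15, 3.41 and 2.77 in the postnatal, against 0.368, 0.339 and 0.462 in the fetal libraries (1.67 ± 0.17; limma adjusted p = 1.47e-04). Kcnh1, Kcnh4 and Kcnh5 were not tested. All 3 tested genes were thus higher, against 30.0% of all genes tested, and Kcnh7 entered only through the postnatal libraries.

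Kcnq1 and Kcnq5 of the KCNQ class were lower after birth. Kcnq1, encoding a slow voltage-gated channel of epithelia and heart, stood at 122, 70.9 and 63.0 in postnatal replicates 1, 2 and 3, against 149, 141 and 145 in the fetal libraries. Its groups did not overlap and the fetal values were tight (-0.82 ± 0.22; limma adjusted p = 0.0137). Kcnq5 stood at 6.23, 3.41 and 3.04 in the postnatal, against 7.61, 7.31 and 8.32 in the fetal libraries (-0.79 ± 0.23; limma adjusted p = 0.0166), and its call was lost without fetal replicate 3 (-0.74), without postnatal replicate 2 (-0.69) and without postnatal replicate 3 (-0.63). For both genes postnatal replicate 1, labelled week 2 and with the highest acinar and duct sums, was nearest to the fetal level. The duct sums were 429, 267 and 254 in postnatal replicates 1, 2 and 3. Acinar RNA, duct RNA and labelled age cannot be told apart in this library, and the part of each was not tested. In RefSeq a noncoding gene lies across Kcnq1, and others lie across Kcnq5, Kcne1, Kcnk3, Kcnk5, Kcnk12 and Kcnn3. Since the strand setting of the counting is not given, reads of such pairs cannot be told apart. Of the 82 members, 35 overlap another gene of some kind.

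Calcium-activated channel genes rose in part. Kcnma1, encoding the large-conductance channel, stood at 28.1, 30.1 and 36.5 in the postnatal libraries, against 12.8, 11.7 and 6.998 in the fetal ones (1.53 ± 0.22; limma adjusted p = 6.43e-04). Kcnn3, encoding a small-conductance channel, stood at 7.49, 7.54 and 9.22 in the postnatal, against 1.90, 2.57 and 1.70 in the fetal libraries (1.58 ± 0.16; limma adjusted p = 1.74e-04). The groups of both genes were well apart. Kcnn2 was higher by 0.50 ± 0.14 (limma adjusted p = 0.0151), at 5.13 to 5.92 in the postnatal and 3.24 to 3.99 in the fetal libraries, and that call was lost when libraries were scaled by total reads (0.21), with the acinar list kept out of the scaling (0.45), without fetal replicate 3 (0.43) and without fetal replicate 2 and postnatal replicate 1 together (0.48). Kcnn4, encoding the intermediate-conductance channel of epithelia and blood cells, stood at 2.78, 5.09 and 3.86 in the postnatal libraries, against 2.95, 6.58 and 1.02 in the fetal ones, and did not pass (0.30 ± 0.44; limma adjusted p = 0.578). It was highest in fetal replicate 2, the library that stood apart in liver and was highest of the fetal libraries in erythroid markers. Without fetal replicate 2 and postnatal replicate 1 Kcnn4 passed (0.95), and without fetal replicate 3 its sign turned (-0.18). Kcnn1 and the sodium-activated channel genes Kcnt1 and Kcnt2 did not pass, with log2 fold changes of -0.10, 0.20 and -0.19, and the sperm channel gene Kcnu1 had at most 1 read in any library.

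Accessory subunit genes held the second-largest change of the whole family. Kcne1, encoding the single-pass partner of the Kcnq1 channel, stood at 72.8, 23.3 and 27.6 in postnatal replicates 1, 2 and 3, against 2.06, 3.17 and 3.27 in the fetal libraries (3.29 ± 0.39; limma adjusted p = 3.09e-04). Kcnq1 itself was lower in the same libraries. Kcne1 and the acinar and duct sums were all highest in postnatal replicate 1, the library labelled week 2. Acinar RNA, duct RNA and labelled age cannot be told apart there, and the part of each was not tested. Kcne4, whose product inhibits Kcnq1 and several voltage-gated channels, stood at 7.75, 19.8 and 16.4 in the postnatal, against 3.01, 3.41 and 2.62 in the fetal libraries (1.88 ± 0.31; limma adjusted p = 0.00122), and here postnatal replicate 1 was lowest. Kcne3 did not pass (0.03 ± 0.16), and Kcne5 was not tested. Kcne2, another single-pass partner gene, was not tested either, at 0.152, 0.275 and 0.239 in the postnatal, against 0.246, 0.363 and 0.0925 in the fetal libraries, with overlapping groups.

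Of the Kcnip and Kcnmb genes, partners of transient-current and large-conductance channels, Kcnip1, Kcnip3, Kcnmb1 and Kcnmb2 were higher, Kcnip2 did not pass, and Kcnip4 and Kcnmb3 were not tested. Kcnip1, encoding a calcium-binding partner of Kcnd channels, stood at 3.95, 6.33 and 6.56 in the postnatal libraries, against 1.81, 0.726 and 0.432 in the fetal ones (1.77 ± 0.29; limma adjusted p = 0.00117). Kcnip3, a relative that also acts as a transcriptional repressor, was higher by 1.54 ± 0.19, and Kcnip2 did not pass (0.24). Kcnmb1, encoding the smooth muscle subunit of the large-conductance channel, stood at 3.39, 6.23 and 3.31 in the postnatal, against 1.14, 0.847 and 0.0617 in the fetal libraries (1.68 ± 0.31; limma adjusted p = 0.00236). It was lowest in fetal replicate 3, which also had the lowest smooth muscle and pericyte, endocrine, neuron and macrophage sums of the fetal libraries. The part of any of these cell types was not tested. Kcnmb2, a subunit gene of endocrine and nerve cells, was higher by 0.82 ± 0.26, a call lost under the same 2 scalings as Kcnd1 and without fetal replicate 2 or 3 or postnatal replicate 2 or 3. Kcnrg, encoding a soluble protein that interferes with voltage-gated channel assembly, stood at 2.13, 1.58 and 1.64 in the postnatal, against 2.86, 2.40 and 2.99 in the fetal libraries (-0.43 ± 0.15; limma adjusted p = 0.0403). With 1 library left out its call held without postnatal replicate 1 and was lost in the other 5 cases, at log2 fold changes between -0.50 and -0.38. It was also lost with the 20 most abundant genes kept out of the scaling (-0.30), in edgeR and DESeq2 on the recovered reads (-0.59 in each) and with the replicate block (adjusted p = 0.0725 in limma). Kcnip1 and Kcnmb1 overlap in RefSeq, so their reads may be shared. Of 15 accessory members, 10 were tested, 6 of them higher and 1 lower, with Kcnab2 not past (0.17 ± 0.32). The shares of all genes tested were 30.0% higher and 33.1% lower.

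The order of the libraries within each group was as follows. Postnatal replicate 1 was the lowest postnatal library for 33 of the 54 tested members (61.1%), against 39.6% of all genes tested. Fetal replicate 3 was the lowest fetal library for 32 members (59.3%), against 29.9% of all genes tested. Fetal replicate 3 also had the lowest endocrine, smooth muscle and neuron sums of the fetal libraries, and postnatal replicate 1 the lowest endocrine, smooth muscle, endothelial and neuron sums of the postnatal ones. The members highest in postnatal replicate 1 included Kcna2, Kcne1, Kcnq1, Kcnq5, Kcnk1, Kcnj13 and Kcnj4. These libraries share depth scaling and cells, so the counts are a description.

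**Figure D4:**
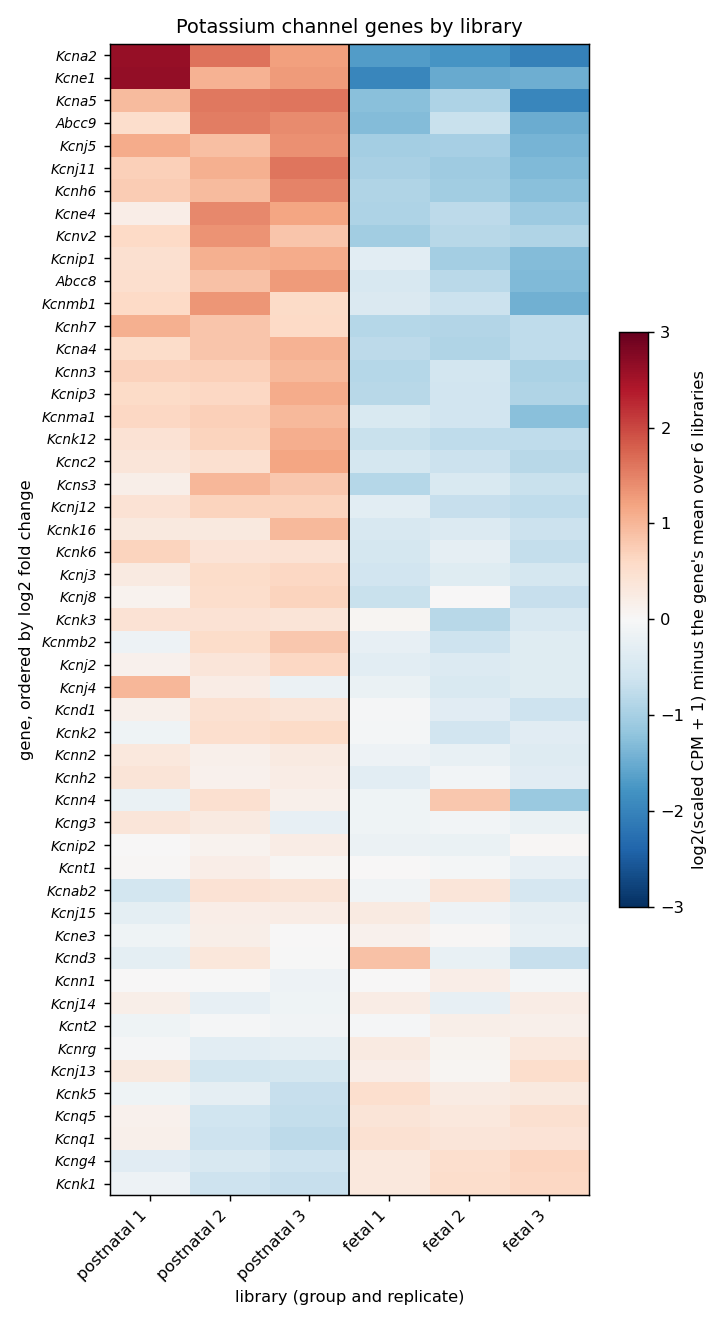
Log2(scaled CPM + 1) of 51 tested members in each library, minus the gene's mean over the 6 libraries, ordered by log2 fold change with postnatal libraries left of fetal ones. Red is above and blue under the gene's mean. Kcna2 and Kcne1 are darkest in postnatal replicate 1.

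The other 28 members never reached the limit for testing and had no value above 1.57. Of these, 6 (Kcna1, Kcna10, Kcnu1, Kcns2, Kcnk18 and Kcnk9) had at most 3 reads in every library. In a single library 3 reads are worth 0.0726 to 0.152 scaled CPM, so levels under that rest on fewer than 3 reads. With a looser limit, a mean of at least 0.1, 71 members were tested, 38 of them higher and 9 lower, against 27.9% and 29.2% of the genes then tested. The members that joined were higher for Kcnh4, Kcnq3, Kcnip4 and Kcnk10, and lower for Kcne5 and Kcnf1. The postnatal means of Kcne5 (0.0907) and Kcnf1 (0.0741) and the fetal mean of Kcnh4 (0.0527) lay under 0.1. These members thus reached the limit only through the other group. Kcnip4 stood at 1.06, 0.860 and 0.854 in the postnatal libraries, against 0.184, 0.0968 and 0.216 in the fetal ones. Kcnf1, a modifier subunit gene, went the other way, at 0.0506, 0.103 and 0.0683 in the postnatal libraries, against 0.737, 0.387 and 0.493 in the fetal ones. Its postnatal values rest on 1 to 3 reads.

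Genes that act with these channels moved mainly upward. Of 8 partner genes outside the symbol rule that the table holds, 5 were tested and 4 were higher, of which Lgi1 and Lrrc55 entered the test only through the postnatal libraries and had to differ to do so. Amigo1, a membrane partner of delayed rectifiers, rose by 1.64 ± 0.14 on the log2 scale, and Lgi1, a secreted partner of Kcna channels in nerve, by 1.53 ± 0.24. Of 17 genes of the electrical triggering pathway, such as glucose entry, calcium, sodium and pacemaker channels, 16 were tested, 14 of them higher and none lower (median 1.25), and 1 of the 14 entered the test only through the postnatal libraries. Over all genes tested, 30.0% were higher and 33.1% lower. Scn3a, a sodium channel gene, was higher by 2.54 ± 0.25 on the log2 scale. Endocrine markers moved with all of these (median 3.26), and their part was not tested. In RefSeq, Kcnk16, Kcnh7, Kcnv2, Kcnj13, Kcnk2, Kcnk6 and Kcnab2 each overlap another protein-coding gene, and their reads may be shared with it. Nudt13, across Kcnk16, stood at 4.23 to 5.36 in the postnatal and 8.66 to 11.04 in the fetal libraries, and Pum3, across Kcnv2, at 34.8 to 46.5 in the postnatal and 75.7 to 85.0 in the fetal libraries. Gca, across Kcnh7, stood at 18.3, 15.7 and 10.8 in the postnatal, against 14.3, 12.6 and 17.5 in the fetal libraries, in the same order of libraries within each group as Kcnh7. Gigyf2, across Kcnj13, stood at 90.8, 73.6 and 78.8 in the postnatal, against 84.7, 92.6 and 100.5 in the fetal libraries, and as for Kcnj13 only postnatal replicate 1 lay inside the fetal range.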

How the data were processed

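Total RNA of freshly isolated islets was depleted of ribosomal RNA and sequenced from stranded libraries, per the labels' protocols. Per the submitters' processing notes the tools included TopHat2 2.0.8b and edgeR 3.30.3; of genome build, annotation, counter and strand setting, nothing is stated in the sources used here. The authors deposited a table with 1 normalized signal per gene and library and no named unit. Every value was a whole number of reads times 1 constant per library (100% within 0.001 reads), so it was read as CPM of an adjusted library size (scaled CPM); the factors between adjusted and recovered library sizes ran from 0.677 in postnatal replicate 1 to 1.25 in fetal replicate 1. A row without a gene name, 1 to 9 reads per library, was left out.

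The main test was limma 3.58.1 in R 4.3.3 on log2(value + 1) with a variance trend, group only, two-sided, on the 12926 genes that reached 1 scaled CPM in 3 or more libraries. No library duplicated another: within groups the chi-square over its degrees of freedom was 40.7 or more. Same-numbered libraries did not deviate together, so no pairing was used. Alternatives were 3 pseudocounts, 3 filters, 3 scalings, a robust trend, the replicate block, the labelled week, left-out libraries on the same genes, and, on recovered reads, DESeq2 1.42.0 and edgeR 4.0.16. edgeR on those reads called 8128 genes. The script was tested on simulated data. The symbol rule uses no measured value, but this gene family, the lists and the naming rules were chosen with earlier results of these data known. Named were 19 islet channel genes in the table (of 21 listed, Kcna6 and Kcnc1 being not analysed here) and the 3 largest rises and falls per class, of which some, and 1 gene of another list, are not reported here, although they count in the totals; a few further members are named by value to complete a class. Marker lists covered 11 cell types, and 3 further lists held partners, pumps and the triggering pathway.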

Additional observations from a re-analysis of the deposited data

How the results depend on the processing

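The 41 calls among the members kept their sign under every alternative that gave them a value. Between 30 and 34 members were higher and 5 to 8 lower when 1 library was left out, and all calls over the table ran from 6886 to 8475. Of all genes tested, 25.2% to 31% were then higher and 28.1% to 34.6% lower. With a filter on a mean of at least 5, fewer genes entered. Only 22 members were then tested, 15 of them higher and 6 lower, against 27.1% and 37.2% of the genes then tested. Scaling by total reads moved the median of all genes by -0.33, and rescaling without the 20 highest genes moved it by 0.23. Under the first, 9 of the 34 rises lost their call and Kcnj3 was no longer tested, which left 24 members higher. edgeR and DESeq2 on recovered reads each called 35 higher and 6 lower. Of all genes tested, edgeR called 31.4% higher and 31.5% lower, and DESeq2 32.5% and 32.2%. The replicate block gave 33 higher and 6 lower members, against 27.6% and 29.9% of all genes tested, and 7426 genes in all. Same-numbered libraries had correlations of -0.21, 0.10 and -0.25, and no library correlated best with its own number, so the numbers pair nothing. The sign of Kcnd3, which did not pass, turned with a pseudocount of 5 (-0.022), scaling by total reads (-0.15) or without the acinar list (-0.010), in edgeR (-0.14) and DESeq2 (-0.16), and ranged from -0.32 to 0.47 over left-out libraries. Kcnn4 turned without fetal replicate 3 (-0.18), in a range up to 0.77 over left-out libraries. The causes were not tested. Of the 35 named genes tested, 24 kept side and direction throughout. Low genes depend on the pseudocount: edgeR gave log2 fold changes of 3.62 for Kcnv2, 3.17 for Kcnh7 and 2.82 for Kcnj3. Each group has 3 libraries.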

Other observations

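Genes that move potassium back into the cell, or along with chloride, changed in both directions. Of 19 genes of the sodium-potassium pump, its FXYD regulators and the cation-chloride cotransporters, 16 were tested, and 9 were higher and 3 lower after birth, against 30.0% and 33.1% of all genes tested. Atp1b2 and Fxyd7, 2 of the 9, entered the test only through the postnatal libraries and had to differ to do so. The largest rises were those of Fxyd1, a pump regulator of muscle, at 73.5, 44.7 and 36.7 scaled CPM in postnatal replicates 1, 2 and 3, against 2.82, 5.40 and 4.25 in the fetal libraries (3.32 ± 0.28), and of Atp1b2, a pump beta subunit gene (2.42 ± 0.23). The largest falls were those of Fxyd2, a pump regulator, at 1.16, 2.06 and 1.23 in the postnatal, against 10.7, 9.83 and 13.2 in the fetal libraries (-2.31 ± 0.19), and of Slc12a2, the sodium-potassium-chloride cotransporter gene that loads secretory epithelia with chloride, at 226, 166 and 150.2 in the postnatal, against 464, 467 and 587 in the fetal libraries (-1.50 ± 0.18). The groups did not overlap for any of these 4 genes.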
